A study of Mus musculus with 16 samples.

Results

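GABA-A receptors are chloride channels built from 5 subunits, and the 7 subunit genes described here are Gabrd, Gabra2, Gabra3, Gabra4, Gabra5, Gabrb1 and Gabrb2, chosen by gene name from the 23724 genes that had reads in the brain of R6/2 and NT mice. Long-read RNA sequencing (PacBio Iso-seq) was done on poly(A) RNA of the cortex and the striatum, with 4 samples for each region and genotype and 16 samples in all. R6/2 mice carry a transgene with exon 1 of the human huntingtin gene and are a model of Huntington's disease (strain B6CBA-Tg(HDexon1)62Gpb/3J), and NT mice are their non-transgenic controls. All mice were male and 3 months old, the labels name no treatment, and the groups are cortex NT, cortex R6/2, striatum NT and striatum R6/2. The transgene itself was not analysed here, and the model expresses a fragment of the protein rather than the whole of it.

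A GABA-A receptor usually joins alpha and beta subunits with 1 gamma or delta subunit, GABA binding between alpha and beta. Receptors with gamma subunits gather at synapses and carry fast inhibition, whereas those with the delta subunit lie outside synapses, respond to low GABA and carry a tonic current. The delta subunit pairs mainly with alpha 4 in the forebrain, the alpha 5 subunit is also known for extrasynaptic receptors, and striatal projection neurons, themselves GABAergic, are known for a tonic GABA current.

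Sequencing yielded 252885 to 808814 reads per cortical sample and 317050 to 1496196 per striatal sample. For 4 striatal samples (NT 1, NT 2, R6/2 2, R6/2 3) 2 sets of counts were summed, and the number of sets is balanced over genotype and was a term in each fit with striatal samples. The regions carried their defining markers: Ppp1r1b, a marker of striatal projection neurons, lay between 2375 and 5755 CPM (gene reads scaled to library size) in NT striatum and between 130.0 and 214 CPM in NT cortex, and Neurod6, a marker of cortical excitatory neurons, lay between 56.6 and 82.4 CPM in NT cortex and between 0 and 12.6 CPM in NT striatum. Striatal NT 3 stood apart with 9992 CPM of Ttr, a choroid plexus marker, against 34.0 to 301 CPM in the other striatal NT samples. In bulk tissue, fewer cells of a type and less RNA per cell cannot be told apart. The labels do not state that samples of a group come from separate animals, so that p values measure the spread between samples.

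The 3 sequences that follow carry the transcript features on which the results turn, taken from GENCODE M21 transcripts (mm10) and written 5′ to 3′. The first is the start of the Gabrd coding sequence, shown because Gabrd was the member that changed with genotype: the first 120 coding bases of ENSMUST00000030925 (chr4:155388995-155397962, minus strand), with the start codon in capitals, of which 68 bases lie in the first coding exon and the rest beyond an intron.
Gabrd: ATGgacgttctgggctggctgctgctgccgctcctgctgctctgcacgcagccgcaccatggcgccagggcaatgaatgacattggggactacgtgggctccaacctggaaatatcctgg
The next is the spliced junction of exons 9 and 10 of Gabra5 in ENSMUST00000068456 (chr7:57408880-57413615, minus strand), shown because the main incomplete forms of Gabra5 held the exons before it and not the last exon, whose first 30 bases are in capitals.
Gabra5: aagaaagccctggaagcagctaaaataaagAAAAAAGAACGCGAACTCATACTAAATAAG
The last is the cassette exon that separates the long from the short form of the beta 2 subunit, in ENSMUST00000192403, at chr11:42602115-42602228 on the plus strand. Its 114 bases, 38 codons, are in capitals between 15 spliced bases on each side.
Gabrb2: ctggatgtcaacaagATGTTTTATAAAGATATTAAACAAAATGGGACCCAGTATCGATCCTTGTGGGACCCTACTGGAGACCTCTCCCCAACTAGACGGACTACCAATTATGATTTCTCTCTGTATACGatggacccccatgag

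All 7 genes had reads, between 101 for Gabra3 and 1805 for Gabrd over the 16 samples, and 615 of the 698596 isoforms with reads belonged to them. Gabra2 (chr5:70957597-71095849, minus strand), Gabra4 (chr5:71569749-71658308, minus strand) and Gabrb1 (chr5:71658113-72149037, plus strand) lie in the same part of chromosome 5, where the starts of Gabra4 and Gabrb1 overlap on opposite strands, which the poly(A) tail of a read tells apart. Gabrd lies at chr4:155384980-155398112 (minus strand), Gabra3 at chrX:72432681-72656848 (minus strand), Gabra5 at chr7:57407672-57510059 (minus strand) and Gabrb2 at chr11:42419757-42629028 (plus strand). Of the 7 members, 6 passed the filter on low counts, and Gabra3 did not in any comparison.

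**Figure D1:**
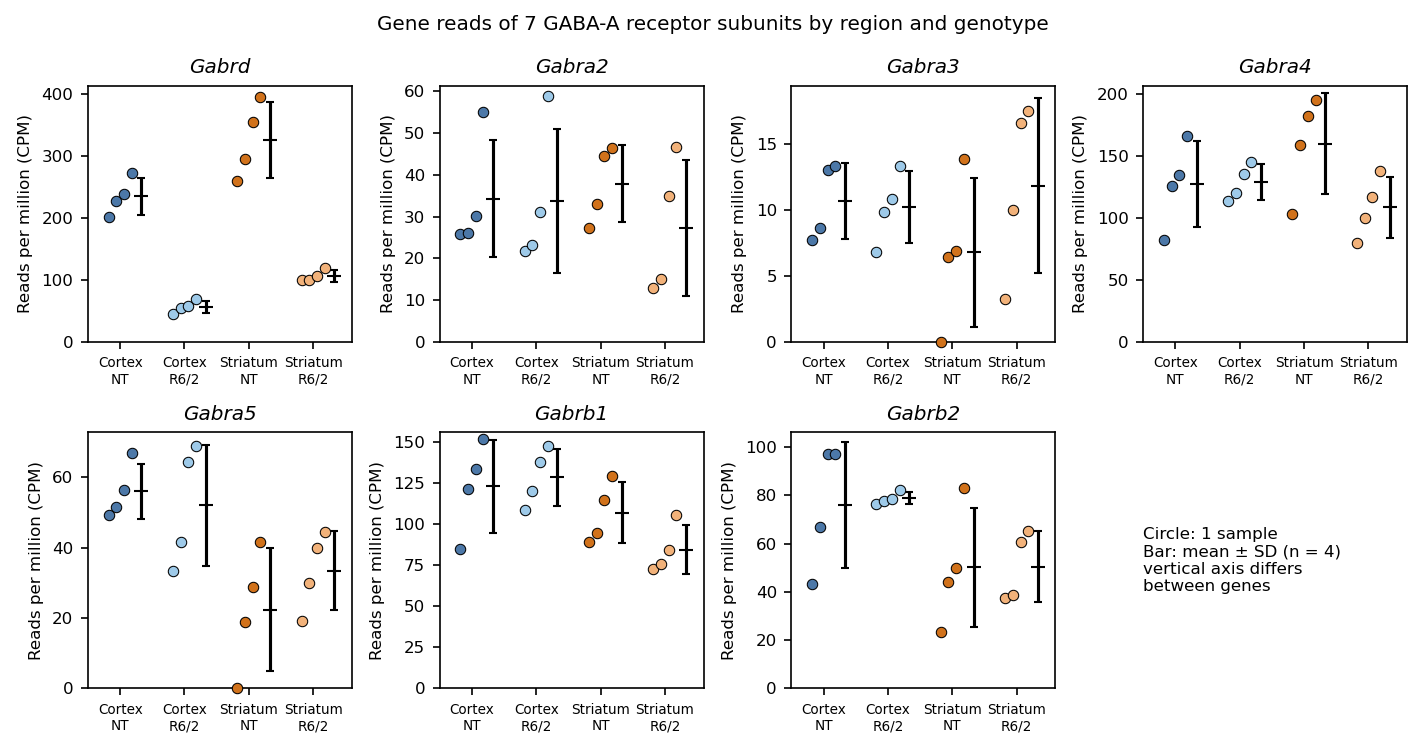
Gene reads scaled to library size (CPM) of the 7 subunits, 1 panel per gene, with a circle for each sample and the mean ± SD (n = 4) beside each group. Gabrd is the panel in which the R6/2 samples lie apart from the NT samples in both regions, and the other 6 genes overlap between genotypes.

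Gabrd, the delta subunit, was lower in R6/2 than in NT mice in both regions. In the cortex it measured 273, 201, 238 and 226 CPM in NT 1 to 4 and 45.2, 57.0, 54.7 and 69.0 CPM in R6/2 1 to 4. In the striatum it measured 294, 395, 354 and 259 CPM in NT 1 to 4 and 99.7, 107, 119 and 99.8 CPM in R6/2 1 to 4. Every R6/2 value lay below every NT value of its region. The group means were 235 ± 29.96 CPM (SD, n = 4) in NT and 56.5 ± 9.79 CPM in R6/2 cortex, and 325 ± 60.7 CPM in NT and 106 ± 9.24 CPM in R6/2 striatum. They rest on 373 and 125 cortical reads and on 986 and 321 striatal reads.

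The fitted level of Gabrd in R6/2 was 23.8% of that in NT cortex (log2 fold change −2.07, SE 0.19, 95% interval −2.48 to −1.67, adjusted p = 1.74e-06, edgeR's quasi-likelihood test) and 31.8% of that in NT striatum (log2 fold change −1.65, SE 0.16, interval −1.99 to −1.31, adjusted p = 0.000118). Of the 6 members tested, 1 fell and 0 rose in each region, where 3.23% of the 6128 cortical genes tested and 4.32% of the 7694 striatal genes passed the same threshold. Over these 6 members the cortical median log2 fold change was −0.07, beside 0.02 over all genes tested, and the striatal median was −0.38, beside −0.00. Gabrd was also the 1 member whose genotypes did not overlap in CPM, a pattern found in 10.3% of cortical and 6.20% of striatal genes tested. The decrease was as large within sets of samples that were sequenced alike: −1.70 on the log2 scale in the 4 striatal samples with 1 set of counts and −1.62 in the 4 with 2 sets. Leaving out each sample in turn gave −2.169 to −1.98 for the cortex and −1.75 to −1.56 for the striatum, also without striatal NT 3 and its choroid plexus reads.

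Some markers of several cell types fell in R6/2 mice, as Gabrd did, whereas no microglial marker was called in either region. Among all genes tested for genotype, 3.23% of cortical and 4.32% of striatal ones passed, in either direction. The summed level of 11 markers of striatal projection neurons lay between 10036 and 14646 CPM in NT and between 2074 and 3456 CPM in R6/2 striatum, where 9 of the 11 fell. In the cortex the same markers summed to 351 to 494 CPM in NT and 96.2 to 141 CPM in R6/2 samples, and 2 of the 3 tested fell. Drd1, the dopamine receptor of the direct pathway, was at 0 in at least 1 cortical sample of each genotype. The 12 interneuron markers summed to 1066 to 1990 CPM in NT and 721 to 877 CPM in R6/2 cortex (3 of 7 tested fell), and to 500.3 to 1058 CPM in NT and 278.8 to 841 CPM in R6/2 striatum (1 of 8 fell). The 10 cortical excitatory markers summed to 256 to 492 CPM in NT and 249 to 368 CPM in R6/2 cortex, with 0 of 4 called. In the striatum they summed to 140 to 334 CPM in NT and 88.1 to 167 CPM in R6/2 samples. Nrgn, the 1 marker tested there, fell (−1.22, adjusted p = 0.0125, edgeR) and made up most of this sum, with means of 188 CPM in NT and 76.7 CPM in R6/2 striatum. Neurod6, Slc17a7 and Emx1 averaged 6.04, 4.55 and 1.97 CPM in NT striatum, so the striatal sum says little of the other markers. The 7 microglial markers ranged from 165 to 371 CPM in NT and 198 to 287 CPM in R6/2 cortex, with 0 of 4 called. Of the glial markers, astrocyte markers summed to 997 to 1415 CPM in NT and 851 to 892 CPM in R6/2 cortex (1 of 8 fell) and oligodendrocyte markers to 3472 to 7541 CPM and 3640 to 5638 CPM (1 of 7 fell), and in the striatum 0 of 8 astrocyte, 2 of 7 oligodendrocyte and 0 of 7 microglial markers fell. The part of these cell types in the fall of Gabrd was not tested.

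The alpha 2 and alpha 5 subunits did not pass the test between genotypes. Gabra2, the alpha 2 subunit of many synaptic receptors, measured 25.7, 30.2, 26.0 and 55.1 CPM in NT and 21.7, 58.9, 23.3 and 31.2 CPM in R6/2 cortex. Its striatal values were 46.5, 27.3, 44.6 and 32.9 CPM in NT and 12.9, 46.7, 35.0 and 14.98 CPM in R6/2 samples. The genotypes overlapped in both regions, with log2 fold changes of −0.13 (interval −0.86 to 0.60) for cortex and −0.39 (−1.12 to 0.34) for striatum. The striatal value differed by the number of sets of counts: it was −1.60 (−2.63 to −0.57, adjusted p = 0.191, edgeR) in the 4 samples with 1 set, where both R6/2 samples lay below both NT samples, and 0.17 (−0.60 to 0.95) in the 4 with 2 sets. Gabra5, the alpha 5 subunit, measured 51.5, 66.9, 56.3 and 49.4 CPM in NT and 41.6, 33.4, 64.3 and 69.0 CPM in R6/2 cortex. In the striatum it measured 41.5, 29.0 and 18.9 CPM in NT 1 to 3 and 19.3, 44.6, 29.8 and 39.9 CPM in R6/2 samples, and striatal NT 4 had 0 reads, which at its depth allows up to 14.1 CPM. These values overlapped too, and the log2 fold changes were −0.11 (−0.64 to 0.42) and 0.36 (−0.43 to 1.15).

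Gabra3, the alpha 3 subunit, was too sparse to be tested with the others. It had 3 to 7 reads in each NT and 5 or 6 in each R6/2 cortical sample, and 0 to 11 in NT and 2 to 17 in R6/2 striatal samples. In CPM this was 7.72 to 13.3 in NT and 6.84 to 13.4 in R6/2 cortex, and 0 to 13.8 in NT and 3.22 to 17.5 in R6/2 striatum, so the genotypes overlapped. Without the filter its log2 fold change was −0.04 (−1.06 to 0.97) for cortex and 0.70 (−0.17 to 1.56) for striatum. Both intervals are wide and include no change, so a change within them is not excluded.

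Gabra4, the alpha 4 subunit and the usual partner of delta, did not pass the test in either region. It measured 82.4, 166, 126 and 135 CPM in NT and 114, 145, 120.4 and 136 CPM in R6/2 cortex, where the log2 fold change was −0.01 (−0.43 to 0.41, adjusted p = 0.993, edgeR). In the striatum NT samples had 158, 195, 182 and 103 CPM and R6/2 samples 99.7, 117, 138 and 79.9 CPM. Striatal NT 1, 2 and 3 lay above all 4 R6/2 samples, and NT 4, the sample with the fewest striatal reads, lay among them. The striatal log2 fold change was −0.61 (SE 0.17, interval −0.98 to −0.24, adjusted p = 0.0686, edgeR), and without NT 4 it was −0.68 with an adjusted p of 0.0364. Both intervals exclude a change as large as that of Gabrd in the same region.

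The beta subunits, which form the GABA site together with the alpha subunits, did not pass the test either. Gabrb1 measured 85.0, 134, 152 and 122 CPM in NT and 108, 147, 138 and 120.2 CPM in R6/2 cortex (log2 fold change 0.07, interval −0.34 to 0.49). In the striatum it measured 114, 129, 94.4 and 89.4 CPM in NT and 75.6, 106, 84.4 and 72.4 CPM in R6/2 samples (−0.37, interval −0.71 to −0.04, adjusted p = 0.232, edgeR). The striatal R6/2 samples lay below all NT samples, except R6/2 2, which exceeded NT 3 and NT 4. Gabrb2 measured 66.9, 97.2, 43.3 and 97.0 CPM in NT and 77.7, 78.6, 76.6 and 82.4 CPM in R6/2 cortex (−0.03, interval −0.48 to 0.43). Its striatal values were 83.0, 44.2, 49.8 and 23.5 CPM in NT and 38.6, 65.3, 60.7 and 37.4 CPM in R6/2 samples (−0.05, interval −0.58 to 0.49). The R6/2 values of Gabrb2 lay within the NT range in both regions.

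Whether the genotype effect differed between the regions was tested as an interaction over all 16 samples, and 0 of the 6 members passed, beside 0.0408% of 7360 genes. The difference for Gabrd, striatal minus cortical change, was 0.45 on the log2 scale (interval −0.07 to 0.96, adjusted p = 0.861, edgeR). For Gabra4 it was −0.58 (−1.14 to −0.01, adjusted p = 0.848), and Gabra4 was the 1 member with an unadjusted p under 0.05.

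**Figure D2:**
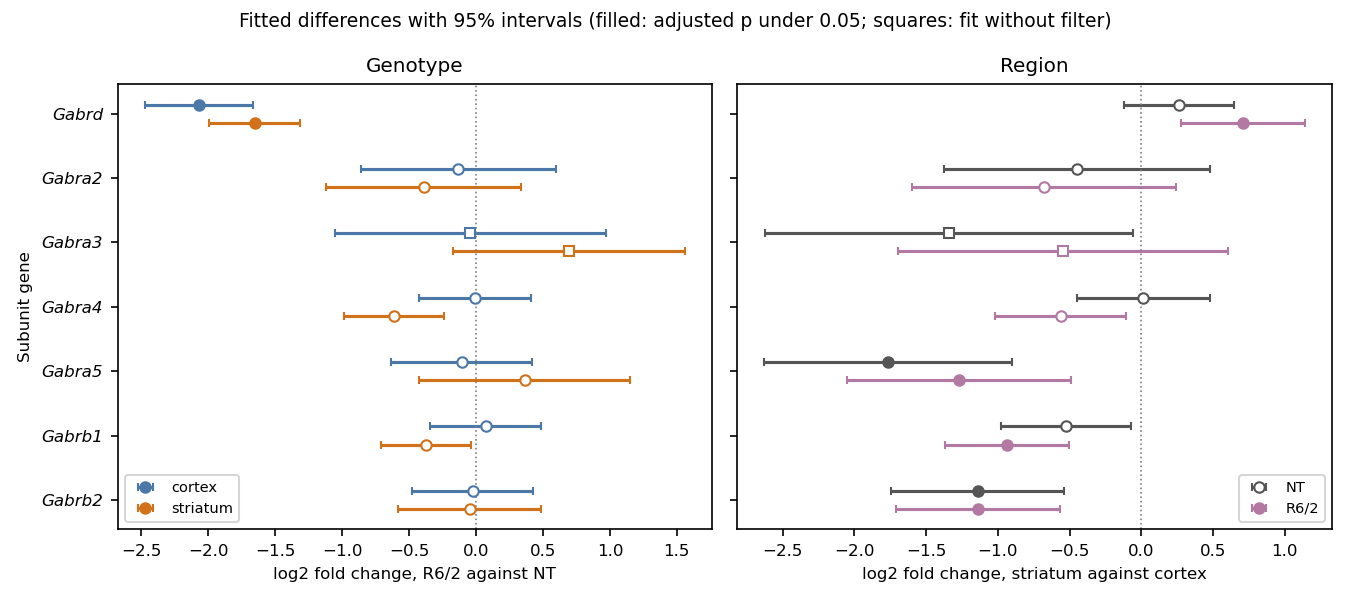
Log2 fold changes of the 7 subunits with 95% intervals, R6/2 against NT on the left and striatum against cortex on the right. Filled symbols passed an adjusted p of 0.05 and squares come from the fit without a filter. Gabrd is the 1 filled row on the left, at −2.07 (cortex) and −1.65 (striatum), and Gabra5 and Gabrb2 are filled for both genotypes on the right.

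Between the regions, Gabra5 and Gabrb2 were lower in the striatum than in the cortex in both genotypes. In NT mice the log2 fold change was −1.77 for Gabra5 (SE 0.42, adjusted p = 0.0022, edgeR) and −1.14 for Gabrb2 (SE 0.29, adjusted p = 0.00406), so 2 of 6 members fell and 0 rose, where 33.6% of 7360 genes passed. The NT values of Gabra5 did not overlap between regions, as in 15.4% of genes, and those of Gabrb2 did. In R6/2 mice Gabra5 (−1.27, adjusted p = 0.0146), Gabrb1 (−0.94, adjusted p = 0.00179) and Gabrb2 (−1.14, adjusted p = 0.00356) were lower in the striatum and Gabrd was higher (0.71, SE 0.21, adjusted p = 0.0135), that is 3 of 6 fell and 1 rose, where 27.4% of genes passed. Gabrd, Gabrb1 and Gabrb2 did not overlap between the regions in R6/2 mice, as in 20.9% of genes. The median log2 fold change of the 6 members was −0.49 in NT and −0.81 in R6/2 mice, beside −0.12 and −0.10 over all genes. These fits set the striatum at the level of samples with 1 set of counts. In those samples the mean isoform length was 1618 to 1885 nt, against 2141 to 2225 nt with 2 sets and 1851 to 2100 nt in cortex. Their mitochondrial reads were 1.22 to 2.63%, against 0.37 to 0.77% with 2 sets and 0.27 to 0.49% in cortex. The part of these differences in the regional calls was not tested. Without the term for sets of counts, the NT calls of Gabra5 (−1.19, adjusted p = 0.0627, edgeR) and Gabrb2 (−0.65, adjusted p = 0.165) were lost. The R6/2 calls of Gabra5 (−0.72, adjusted p = 0.275), Gabrb1 (−0.68, adjusted p = 0.0524) and Gabrb2 (−0.69, adjusted p = 0.153) were lost too. Without incomplete reads, described further on, the calls of Gabra5 and Gabrb2 were lost in both genotypes. At equal depth 1 member remained called in each genotype, and the R6/2 call of Gabrd was lost (0.53, adjusted p = 0.201, edgeR). That call was also lost with samples of the same number as a block (0.70, adjusted p = 0.074) and with striatal samples of 1 set alone (0.68, adjusted p = 0.0539). It was kept without the term for sets of counts (0.83, adjusted p = 0.0126).

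The 4 groups of Gabrd thus stood in the order striatum NT, cortex NT, striatum R6/2 and cortex R6/2. The NT regions overlapped and did not pass the test (0.26, adjusted p = 0.29, edgeR), although without cortical NT 1 the difference was 0.57 with an adjusted p of 0.019. For Gabra4 the means ran from striatum NT (160 ± 40.6 CPM, SD, n = 4) through cortex R6/2 (129 ± 14.3) and cortex NT (127 ± 34.6) to striatum R6/2 (109 ± 24.7), with neighbours that overlapped. For Gabrb1 they ran from cortex R6/2 (129 ± 17.5 CPM) and cortex NT (123 ± 28.2) to striatum NT (107 ± 18.5) and striatum R6/2 (84.5 ± 15.04), also with overlapping neighbours. Gabrb2 averaged 78.8 ± 2.50 CPM in R6/2 and 76.1 ± 26.1 in NT cortex, 50.5 ± 14.6 in R6/2 and 50.1 ± 24.7 in NT striatum, with no separation between genotypes in either region. Gabra5 averaged 56.1 ± 7.81 CPM in NT and 52.1 ± 17.3 in R6/2 cortex, 33.4 ± 11.2 in R6/2 and 22.3 ± 17.5 in NT striatum, and Gabra2 between 27.4 ± 16.3 (striatum R6/2) and 37.9 ± 9.24 (striatum NT). Gabra3 averaged 6.78 ± 5.65 CPM in NT and 11.8 ± 6.64 in R6/2 striatum, and 10.7 ± 2.90 and 10.2 ± 2.70 in NT and R6/2 cortex.

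TALON sorts reads into isoforms that are annotated (known), that join annotated splice sites in a new way (NIC), that hold a splice site outside the annotation (NNC) and that match only a part of an annotated transcript (incomplete splice match, ISM). Reads of the first 3 classes are called complete here. By a share of at least 10% of a member's complete reads in at least 1 group, 17 isoforms were described, from 1 for Gabrd to 4 for Gabra5 and 4 for Gabrb2. Isoform usage changed with genotype in 0 of 5 members tested in either region, where 0.359% of 3060 cortical and 0.428% of 4443 striatal genes passed, and with region in NT mice in 0 of 6, where 0.46% of 5653 passed. The interaction of region and genotype on usage was called by edgeR's diffSpliceDGE in 0 of 6 members and in 0% of all genes, with 110 genes at an unadjusted p under 0.05. On simulated usage changes, a 4-fold rise of 1 isoform of a gene, the test recovered 21.5% of cortical and 18.5% of striatal ones. It recovered 3.5% for region in NT mice in the fit over all 16 samples. Most changes of the simulated size were thus not called, and the interaction, from the same fit, was not simulated.

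The fall of Gabrd was in a gene with 1 main isoform, whose share in NT and R6/2 mice had overlapping intervals. The 9-exon ENSMUST00000030925, with the full coding sequence of 1347 bases whose start is printed above, made up 329 of 354 complete reads in NT cortex (92.9%, Wilson interval 89.8 to 95.2%), 112 of 120 in R6/2 cortex (93.3%, 87.4 to 96.6%), 820 of 912 in NT striatum (89.9%, 87.8 to 91.7%) and 267 of 298 in R6/2 striatum (89.6%, 85.6 to 92.6%). Incomplete reads were 4 to 7.51% of Gabrd reads in the 4 groups, and without them the genotype change was −2.07 (cortex) and −1.68 (striatum) on the log2 scale. These intervals cover counting error only.

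Gabrb1 had a second isoform whose pooled share was lower in R6/2 mice in both regions, though its usage did not pass the test. The annotated 9-exon ENSMUST00000031122 held 75.5% and 86.4% of complete reads in NT and R6/2 cortex, and 62.7% and 86.3% in NT and R6/2 striatum. Most other reads came from a 10-exon NIC isoform of 1863 nt, with 28 of 155 complete reads in NT cortex (18.1%, Wilson interval 12.8 to 24.9%), 18 of 213 in R6/2 cortex (8.45%, 5.41 to 13.0%), 74 of 260 in NT striatum (28.5%, 23.3 to 34.2%) and 20 of 212 in R6/2 striatum (9.43%, 6.19 to 14.1%). By sample its share was 21.7, 16.4, 15.4 and 19.6% in NT and 4.88, 8.93, 11.7 and 5.13% in R6/2 cortex. No cortical R6/2 sample reached the lowest NT sample, a separation found in 7.37% of the 4845 isoforms of genes with several isoforms and at least 10 complete reads in every cortical sample. In the striatum the shares were 13.2, 39.2, 31.0 and 0% in NT and 5.13, 5.81, 14.5 and 16.7% in R6/2 samples. These overlapped, 51 of the 74 NT reads were from NT 2, and the 0% of NT 4 stands for 0 of 12 reads.

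For the usage of Gabrb1 isoforms the adjusted gene-level p was 0.904 in cortex and 0.226 in striatum (edgeR's diffSpliceDGE with Simes p values). Single striatal samples decide the latter: it was 0.0265 without NT 1 and 0.99997 without NT 2. Gabra4 was the other of 2 members with an unadjusted usage p under 0.05 in the striatum, and its adjusted p was 0.598.

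**Figure D3:**
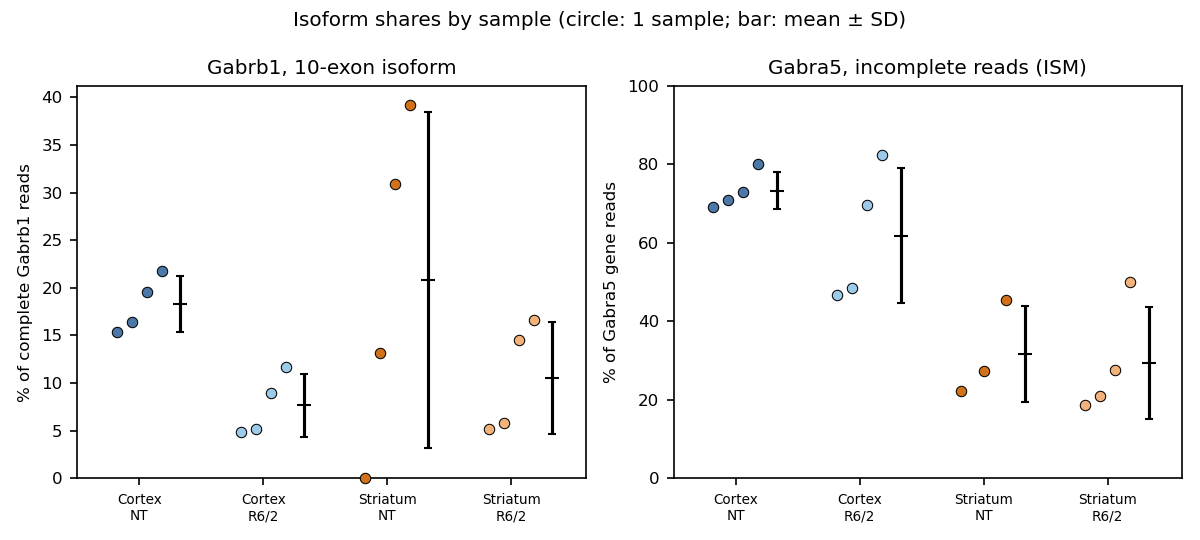
Left, percentage of complete Gabrb1 reads that came from the 10-exon isoform; right, percentage of Gabra5 gene reads that were incomplete (ISM), with a circle for each sample and the mean ± SD of each group. The cortical NT and R6/2 samples do not overlap on the left, and on the right the cortical samples (46.8 to 82.4%) lie mostly above the striatal samples (18.8 to 50.0%).

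Gabra4 was read mainly as the 9-exon ENSMUST00000031121, with 78.5% of complete reads in NT and 75.1% in R6/2 cortex, and 76.8% in NT and 69.5% in R6/2 striatum. A 2-exon annotated form without a coding sequence, ENSMUST00000199150, held 5.13 to 10.6%. A 9-exon NIC isoform of 3647 nt, named after its values were seen, had a higher pooled share in R6/2 mice: it held 1.95% and 5.86% in NT and R6/2 cortex (4 of 205 and 16 of 273 reads), and 3.59% and 9.66% in NT and R6/2 striatum (17 of 474 and 31 of 321 reads). Its striatal NT samples (0.99 to 5.74%) did not reach the R6/2 samples (7.14 to 10.3%), as in 7.20% of isoforms compared in the striatum, whereas its cortical NT samples (1.32 to 3.70%) and R6/2 samples (3.45 to 11.5%) overlapped. Its own striatal adjusted p was 0.339 (diffSpliceDGE).

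Gabra5 was the member with the most even mixture of annotated isoforms, which share a coding sequence of 1389 bases and differ outside it. The 10-exon ENSMUST00000068456 held 21.6 to 37.5% of complete reads over the 4 groups, the 11-exon ENSMUST00000206382 14.9 to 29.3%, an 11-exon NIC isoform of 2731 nt 17.2 to 23.0% and the 10-exon ENSMUST00000206734 4.17 to 12.1%, on 24 to 74 complete reads per group. Gabra2 was read mainly as the 10-exon ENSMUST00000197284 (55.9 to 74.3%) and Gabra3 as the 10-exon ENSMUST00000055966 (66.7 to 88.6%), with 8 to 35 complete Gabra3 reads per group. The other 2 Gabra3 isoforms, an 11-exon NNC and a 9-exon NIC form, had at most 3 reads in a group.

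Of Gabrb2, few reads were complete. The 10-exon ENSMUST00000007797, the short form with the coding sequence of 1422 bases, held 57.7 and 61.7% of 26 and 47 complete reads in NT and R6/2 cortex, and 45.7 and 43.1% of 46 and 51 in NT and R6/2 striatum. The 5-exon ENSMUST00000143626 and the 4-exon ENSMUST00000136050, neither with a coding sequence, held 13.0 to 23.5% and 7.69 to 15.7%, and a 9-exon NIC form 2.174 to 11.5%. The long form with the 114-base cassette exon printed above was read 3 times in 170 complete reads, 1 time in R6/2 cortex and 2 times in NT striatum, so its inclusion could not be compared.

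Incomplete reads made up more of Gabra5 and Gabrb2 than of all genes, where they were 18.8% and 18.4% of reads in NT and R6/2 cortex and 14.7% and 14.02% in NT and R6/2 striatum. In Gabra5 they were 66 of 90 reads in NT cortex (73.3%, Wilson interval 63.4 to 81.4%), 67 of 118 in R6/2 cortex (56.8%, 47.8 to 65.4%), 22 of 80 in NT striatum (27.5%, 18.9 to 38.1%) and 26 of 100 in R6/2 striatum (26.0%, 18.4 to 35.4%). By sample the share was 80.0, 71.0, 69.2 and 73.1% in NT cortex, and 27.3, 22.2 and 45.5% in striatal NT 1 to 3. Striatal NT 4 had no Gabra5 reads and gives no share. In the test of ISM against complete reads, Gabra5 had an adjusted p of 0.144 (diffSpliceDGE) and Gabrd, where the share was higher in the striatum, one of 0.162, so 0 of 7 members passed, where 1.72% of 9132 genes did.

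Most incomplete Gabra5 reads began at the annotated start and lacked the 3′ end: 53 reads in NT and 56 in R6/2 cortex, and 14 in NT and 15 in R6/2 striatum. Among their main isoforms were forms as long as the annotated transcripts without the last exon, 1433 nt for the first 9 exons of ENSMUST00000068456 (16 and 14 reads in NT and R6/2 cortex, 4 and 2 in NT and R6/2 striatum) and 1416 nt for the first 10 exons of a second transcript (10 and 11, 3 and 4 reads). A further 10-exon form of 1493 nt had 14 and 7 reads in NT and R6/2 cortex, and 1 and 4 in NT and R6/2 striatum. The last exon of ENSMUST00000068456 has 1238 nt and holds 300 of the 1389 coding bases. The 15 bases on each side of the junction printed above hold 18 A in 30, against 6 to 11 at the other 8 junctions of the transcript and a median of 8 over 223113 junctions of protein-coding transcripts, of which 0.196% hold as many. Its part in these reads was not tested. The regional calls of Gabra5 rest on the incomplete reads: without them the log2 fold change from cortex to striatum was −0.42 in NT mice (adjusted p = 0.67, edgeR) and −0.57 in R6/2 mice (adjusted p = 0.474).

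Incomplete Gabrb2 reads were 80.3% and 73.3% of its reads in NT and R6/2 cortex, and 70.3% and 68.3% in NT and R6/2 striatum. They were chiefly a 9-exon form that lacks the first exon (54, 59, 40 and 46 reads in cortex NT, cortex R6/2, striatum NT and striatum R6/2) and a single-exon form of 4113 nt (38, 59, 47 and 46 reads). Without incomplete reads, the regional change of Gabrb2 was −0.29 in NT mice (adjusted p = 0.672, edgeR) and −0.68 in R6/2 mice (adjusted p = 0.234), so these calls were lost too. In the other members incomplete reads were 1.91 to 5.87% (Gabra4), 18.5 to 26.6% (Gabrb1), 36.6 to 46.2% (Gabra2) and 10.3 to 52.9% (Gabra3) of reads.

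Among the other GABA-A subunits, 9 of 12 listed had reads, and 0 of 4 tested cortical and 0 of 5 striatal ones changed with genotype. The gamma subunits Gabrg1 and Gabrg3 had group means of 28.7 to 44.8 and 9.65 to 21.1 CPM, and Gabra6, the alpha subunit of cerebellar granule cells, was at 0 in every group but striatum R6/2, where it averaged 0.259 CPM.

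**Figure D4:**
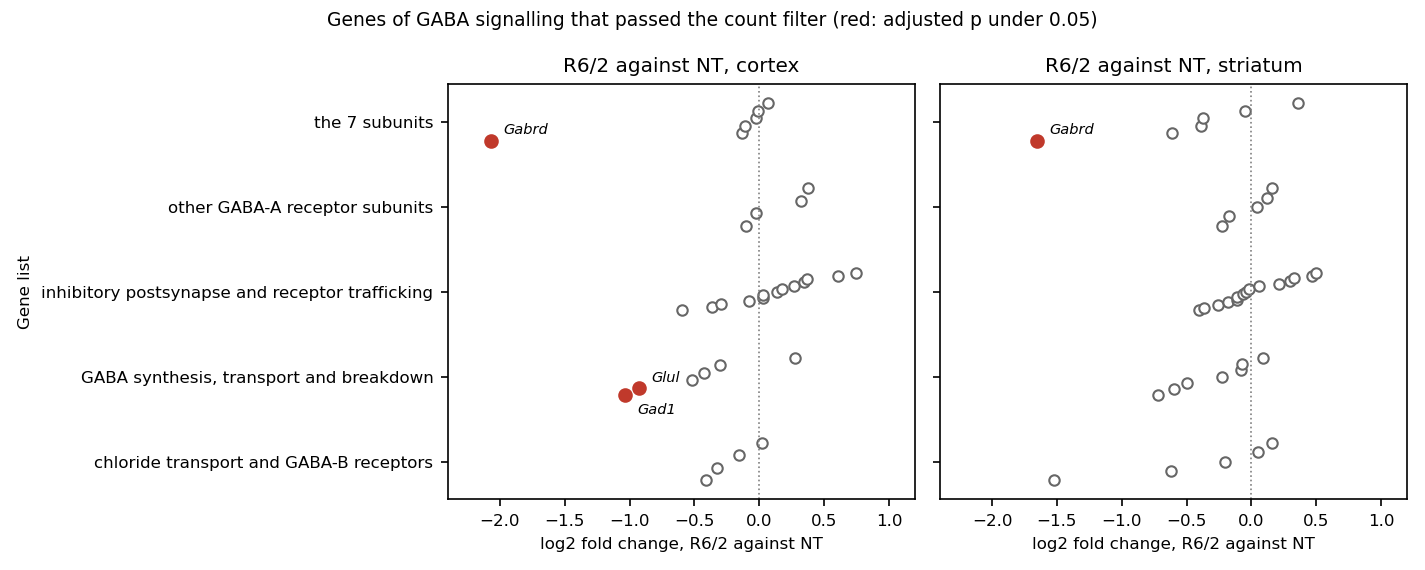
Log2 fold changes of R6/2 against NT for the 7 subunits and 4 lists of GABA genes, cortex on the left and striatum on the right, with a circle for each gene that passed the count filter. Red circles passed an adjusted p of 0.05: Gabrd in both regions, and Gad1 and Glul in the cortex.

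Of 6 genes of GABA synthesis, transport and breakdown tested in the cortex, 2 fell, 0 rose and 4 did not pass, where 3.23% of all genes passed in either direction: Gad1, which makes most GABA (−1.03, adjusted p = 0.0109, edgeR), and Glul, the glutamine synthetase of astrocytes (−0.93, adjusted p = 0.0233). The median of this list was −0.47 in the cortex, beside 0.02 over all genes, and −0.22 in the striatum, where 0 of 7 were called and Gad1 was at −0.60 (adjusted p = 0.0634). Of the genes of the inhibitory postsynapse and receptor trafficking, 0 of 13 (cortex) and 0 of 15 (striatum) were called, with medians of 0.14 and −0.04. Gphn, the scaffold gephyrin that holds synaptic receptors, was at −0.08 in cortex and −0.18 in striatum. Of the chloride transport and GABA-B receptor genes, 0 of 4 (cortex) and 0 of 5 (striatum) were called, with medians of −0.24 and −0.21.

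Between the regions, where 33.6% of all genes tested passed in NT and 27.4% in R6/2 mice, these lists held the following calls. In NT mice 3 of 6 genes of GABA synthesis, transport and breakdown were higher in the striatum and 2 lower, with Abat, the enzyme that breaks GABA down, at 1.32 and Gad1 at 0.80 on the log2 scale, and in R6/2 mice 4 were higher and 1 lower (Abat 1.58, Gad1 1.25). Of 14 genes of the inhibitory postsynapse and receptor trafficking, 3 were higher and 4 lower in NT and 2 higher and 3 lower in R6/2 striatum. Gabarap, named for its binding to GABA-A receptors, was higher in the striatum (1.12 in NT, 0.84 in R6/2 mice), and Nsf, an ATPase of vesicle fusion and receptor trafficking, was lower (−1.49 and −1.21). Of 6 genes of chloride transport and GABA-B receptors, 3 were lower in NT striatum, among them the GABA-B subunits Gabbr2 (−2.25) and Gabbr1 (−0.96), and in R6/2 striatum 1 was higher and 3 lower. Of 5 other GABA-A subunits tested, 2 were lower and 0 higher in NT striatum, and 0 were called in R6/2 mice. The interaction of region and genotype was called in 0 genes of these 3 lists and in 0 of 5 other subunits.

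The genes whose levels ran most like those of each member over the 16 samples were found by Pearson's r of log2 CPM among 4752 genes, as a description of samples that share region, genotype and depth. For Gabrd these were Dbp, a transcription factor of the circadian clock's output (r = 0.978), and Ckb, the brain creatine kinase (r = 0.962). Dbp averaged 309 and 77.8 CPM in NT and R6/2 cortex, and 458 and 141 CPM in NT and R6/2 striatum, the same order of groups as Gabrd. For Gabra5 Sh3bp5 was the most alike (r = 0.948), and its r was as low as 0.757 when 1 sample was left out. For Gabrb2 they were Sh3gl2, an endophilin of synaptic vesicle recycling (r = 0.940), and Atcay (r = 0.902). For Gabrb1 they were St6galnac5 (r = 0.869) and Syt16 (r = 0.865), for Gabra3 Hk1 (r = 0.879) and Stard7 (r = 0.854), for Gabra4 Rasgef1a (r = 0.842) and Actg1 (r = 0.825), and for Gabra2 Rnf112 (r = 0.740) and Fam217b (r = 0.665). With 1 sample left out, r was as low as 0.701 (Hk1) and 0.642 (Stard7) for Gabra3. For Gabra2 it was as low as 0.658 (Rnf112) and 0.511 (Fam217b).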

How the data were processed

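Full-length PacBio reads ending in poly(A) were aligned by the authors with minimap2 2.17-r941 (build mm10), cleaned with TranscriptClean and annotated with TALON, whose transcript filter was not applied. The deposited counts give whole reads per isoform, not normalized. Extracted RNA was treated with a 5′-phosphate-dependent exonuclease before cDNA synthesis. Gene reads were summed here over known, ISM, NIC and NNC isoforms, leaving out the genomic, antisense and intergenic classes, and the second set of counts of 4 striatal samples was added to the first. CPM are these counts relative to the TMM-scaled library.

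Differences were tested with edgeR 4.0.16 (R 4.3.3): filterByExpr, TMM and the quasi-likelihood test, with Benjamini-Hochberg adjustment over all genes tested and a threshold of 0.05. Cortex and striatum were fitted apart for genotype, and together for region and interaction. The number of sets of counts was a term wherever striatal samples entered. Isoform usage was tested with diffSpliceDGE over isoforms of 10 or more reads outside the ISM class, and the ISM test and the usage interaction were added after the data had been seen. On simulated data with 200 changed genes the gene test recovered 88.0% in the cortex, 91.0% in the striatum and 93.5% over all samples. Alternatives were DESeq2 1.42.0, other filters, scalings and read classes, equal depth, a replicate block and leaving samples out. All 7 members are named, and isoforms from a share of 10%; the members and lists were chosen with earlier results of these data known. All 18 known member isoforms matched GENCODE M21 in exon number and length. Python 3.11.15 was used for tables. A few genes that the rules would name are not reported here.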

Additional observations from a re-analysis of the deposited data

Results flagged for a closer look

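Of 71 groups of 4 values examined (CPM, isoform shares and incomplete shares of the members, shares only where every sample had at least 10 reads), 5 held a sample whose gap to its nearest neighbour exceeded Dixon's 95% critical value. Chance gives about 1 in 20 such groups.

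Gabra2 was at 55.1 CPM in cortical NT 4, against 30.2 CPM in the nearest NT sample. The incomplete share of Gabrd was 25.5% in striatal NT 4, 14 of 55 reads, against 6.80% in the nearest sample, and 7.56% in cortical NT 4, against 4.30%. The incomplete share of Gabrb1 was 37.9% in striatal R6/2 4, against 17.0%. The 4-exon Gabrb2 isoform ENSMUST00000136050 made up 30.8% of complete Gabrb2 reads in 1 cortical R6/2 sample and 0% in the other 3.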

How the results depend on the processing

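Gabrd kept its direction and stayed past the threshold in all 17 alternatives of the cortex (adjusted p 5.96e-16 to 9.03e-05) and all 21 of the striatum (6.79e-14 to 0.0378). The count of members called was 1 in every cortical alternative and 1 to 2 in the striatum without each sample, Gabra4 being the one gained. It was 0 for the interaction and for usage in every alternative, except a range of 0 to 1 for striatal usage without each sample (Gabrb1). The regional counts depended on the processing. In NT mice the count of 2 became 0 without ISM reads, 1 at equal depth, 0 without the term for sets of counts, 0 with the first set alone and 1 to 3 without each sample; the call of Gabrb2 was lost without cortical NT 4 (−0.81, adjusted p = 0.0611, edgeR). In R6/2 mice the count of 4 became 2, 1, 1 and 1 in the same order and 3 to 5 without each sample. There Gabra4 was gained without striatal NT 3 (−0.62, adjusted p = 0.0403), and Gabra5 was lost without striatal R6/2 1 (−1.07, adjusted p = 0.0937) or cortical R6/2 3 (−1.14, adjusted p = 0.0504). With striatal samples of 1 set alone 3 were called, Gabrd (0.68, adjusted p = 0.0539) and Gabra5 (−1.04, adjusted p = 0.0666) being lost and Gabra2 gained (−1.39, adjusted p = 0.0419). The cause was not tested, except that fewer reads enter without ISM reads and at equal depth.

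Samples of the same number did not all deviate together (correlations over 4758 genes from −0.105 to 0.229 between cortical genotypes, −0.113 to 0.130 between striatal genotypes, −0.151 to 0.151 between NT and 0.0236 to 0.425 between R6/2 regions). Their mean was highest between R6/2 regions (0.221). The labels do not say that samples of the same number share a mouse, so the numbers were not taken as pairs. Of the 4 pairs, 2, 1, 2 and 3 correlated best with their own number. Deviations were taken from the mean of the samples of a group with the same number of sets. In the striatum only 2 samples share such a mean, and their deviations mirror each other. The correlations are thus not independent and cannot decide whether the numbers are pairs. With a replicate block the counts of members called were 1 in the cortex, 1 in the striatum, 2 and 3 between regions in NT and R6/2 mice and 0 for the interaction and for usage; Gabrd between R6/2 regions was the call lost (0.70, adjusted p = 0.074). The block turned the small cortical changes of Gabra4 to 0.0274 and Gabrb2 to 0.0371, the striatal change of Gabrb2 to 0.0053 and the NT regional change of Gabra4 to −0.0367.

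Other log2 changes that turned sign were small and not called. In the cortex they were Gabra2 with the genomic class (0.0535), Gabra4 with upper-quartile scaling (0.0352), DESeq2 (0.0004), no filter (0.0534) and equal depth (0.0536), Gabrb1 without ISM reads (−0.0458), and Gabrb2 with upper-quartile scaling (0.0169) and no filter (0.0348). In the striatum they were Gabra2 in samples with 2 sets (0.1739, against −1.60 in those with 1 set), and Gabrb2 with upper-quartile scaling (0.0039), the genomic class (0.0013), the first set (0.1213) and samples with 2 sets (0.0087). Between NT regions they were Gabra2 with the genomic class (0.1179), no term for sets (0.0042), the first set (0.2588) and striatal samples with 1 set (0.0631). Leaving out each sample gave cortical ranges of −0.53 to 0.235 for Gabra2, −0.17 to 0.136 for Gabra4, −0.24 to 0.0421 for Gabra5, −0.0644 to 0.182 for Gabrb1 and −0.15 to 0.096 for Gabrb2, a striatal range of −0.31 to 0.2117 for Gabrb2, and NT regional ranges of −1.03 to 0.1309 for Gabra2 and −0.1797 to 0.249 for Gabra4. Depth limited Gabra3, with at most 17 reads in a sample, and the isoform shares of Gabra2, Gabra3, Gabra5 and Gabrb2.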
